A study of Mus musculus with 12 samples.

Results

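Voltage-gated calcium channels open when the membrane depolarizes and admit calcium through a pore that is built by 1 large protein, the α1 subunit. The α1 gene sets the class of the channel. Cacna1c and Cacna1d encode the L-type pores Cav1.2 and Cav1.3, Cacna1a, Cacna1b and Cacna1e encode the P/Q-type, N-type and R-type pores that serve transmitter release in neurons, and Cacna1g, Cacna1h and Cacna1i encode the T-type pores, which open at small depolarizations. OPCs are glial progenitors that give rise to oligodendrocytes and express voltage-gated calcium channels. The 8 genes named here were taken by symbol from 30165 genes counted in OPCs and from 17918 genes counted in neurons, where they are divided over 129 of 66298 RefSeq transcripts. Both remaining pore genes, Cacna1f and Cacna1s, were looked up beside them.

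The study deleted the L-type pair from OPCs. Comparing dKO with ctl libraries asks what the RNA of the deleted genes and of the other 6 pore genes looked like afterwards. This was asked in OPC libraries and in neuron libraries. In dKO mice NG2-CreERT2, a tamoxifen-inducible Cre under the NG2 promoter, acted on homozygous floxed alleles of Cacna1c (exons 14 and 15) and Cacna1d (exon 2). NG2 is made by OPCs and also by pericytes. The ctl mice are labelled wild type. Per the study's methods tamoxifen was given at 100 mg/kg on postnatal days 7 and 8, and the age at collection is not given in the sources used here. OPCs were enriched from cortex with beads against CD140, NG2 and O4, and neurons were collected as the flow-through once ACSA-2, CD31, CD11b and O4 beads had bound astrocytes, endothelial cells, microglia and oligodendrocytes. Each of the 4 groups (OPC ctl, OPC dKO, Neuron ctl, Neuron dKO) had 3 libraries, and each library pooled cells of 2 mice, so spread between libraries is spread between pools.

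The pores share a filter for calcium in which each of the 4 repeats of the α1 protein places 1 acidic residue. The 27 bases around that codon in the third repeat are shown because they divide the family into its high-voltage and low-voltage branches, and the codon is in capitals. Sequences are from the coding strand of GENCODE M21 transcripts on GRCm38, 5′ to 3′.
Cacna1c, chr6:118654455-118656138, minus strand: gtctccaccttcGAAgggtggccagag
Cacna1d, chr14:30099243-30100722, minus strand: gtctcaacttttGAGggctggcccgcg
Cacna1a, chr8:84581326-84583559, plus strand: gtgtccacaggaGAGggctggccacag
Cacna1b, chr2:24650628-24651106, minus strand: gtgtccacgggaGAGgggtggcccatg
Cacna1e, chr1:154444002-154444897, minus strand: gtctctacagggGAAggatggcctcag
Cacna1g, chr11:94426459-94426485, minus strand: ctggcctccaagGATggctgggttgac
Cacna1h, chr17:25383496-25383522, minus strand: ctgtcatccaagGATggctgggtaaac
Cacna1i, chr15:80376795-80376821, plus strand: ttggcctccaagGATggctgggtgaac
The L-type and the P/Q, N and R-type genes have a glutamate codon, GAA or GAG, at this place. The T-type genes have GAT, which encodes aspartate. In the first 5 genes the 27 bases lie on both sides of an exon junction, so the coordinates enclose an intron, whereas in the T-type genes they lie within exon 24. The deleted exons of Cacna1c and Cacna1d are other exons of these genes.

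The libraries held total counts of 14935963 to 19812274 in OPCs and 15052892 to 16344601 in neurons. Markers of the labelled cells were present in every library but were not the largest part of the RNA. In OPC libraries the 10 OPC markers summed to 408 to 812 FPKM (fragments per kilobase and per 1e6 fragments), led by Olig1, against 5976 to 10847 FPKM for 9 oligodendrocyte markers, led by Mbp, and 8404 to 18952 FPKM for 10 choroid plexus and ependyma markers, led by Ttr. In neuron libraries the 10 neuron markers summed to 467 to 857 TPM (transcripts per 1e6 transcripts), led by Tubb3, against 6228 to 15802 TPM for 10 endothelial markers, led by Ly6c1, and 12491 to 67692 TPM for choroid plexus and ependyma. The sum of OPC markers in OPC libraries was mostly Olig1, Sox10 and Olig2, with ctl means of 346, 147 and 78.3 FPKM. Pdgfra and Cspg4 averaged 7.73 and 3.44 FPKM in ctl. None of the listed markers was at 0 in all libraries of a table. The RNA of dKO OPC replicate 2 held 14983 Xist counts and 0 counts of 4 Y-linked genes, unlike the other 5 OPC libraries. In neurons, ctl and dKO replicate 1 held Y-linked RNA that was near 0 in the other 4. Counts of the Y-linked Ddx3y in ctl were 2820, 1933 and 2395 in OPC libraries and 3099, 0 and 2 in neuron libraries. The OPC and neuron libraries were thus not all from the same mice. In bulk RNA of this kind, fewer cells of a type and less RNA per cell cannot be told apart.

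In ctl OPCs the pore gene with the highest level was Cacna1h, the T-type pore Cav3.2. Its level per length was 2.98, 2.97 and 2.46 FPKM in the 3 libraries, a mean of 2.80 ± 0.29 (SD, n = 3). No other pore gene reached that range in any ctl library. The P/Q-type gene Cacna1a followed at 1.39 ± 0.23 FPKM, 2.02-fold lower. The L-type gene Cacna1c at 1.06 ± 0.092 FPKM, the T-type gene Cacna1g at 0.988 ± 0.125 FPKM and the L-type gene Cacna1d at 0.868 ± 0.129 FPKM came next. From Cacna1a down to Cacna1d the ranges of neighbours in that order overlapped, although Cacna1a and Cacna1d themselves did not. The R-type gene Cacna1e was 3.30-fold below Cacna1d at 0.263 ± 0.026 FPKM, with no overlap. The N-type gene Cacna1b at 0.0971 ± 0.0379 FPKM and the T-type gene Cacna1i at 0.0364 ± 0.0252 FPKM were lowest and overlapped each other. Cacna1f had 0 to 9 reads and Cacna1s 0 to 4 reads per OPC library, below the count minimum for a test.

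**Figure D1:**
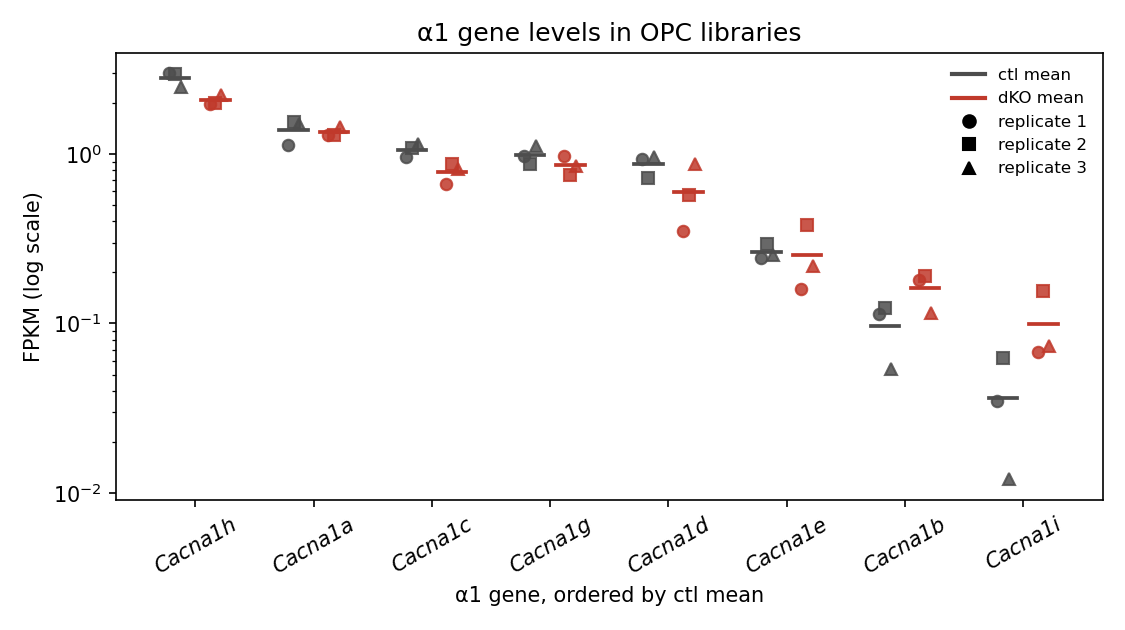
FPKM of the 8 α1 genes (log axis) in each OPC library, with ctl in grey, dKO in red, symbols for replicates and bars for group means. Cacna1h leads in every library, and all dKO points of Cacna1h and Cacna1c lie below all ctl points.

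In dKO OPCs Cacna1h again led at 2.06 ± 0.15 FPKM and Cacna1a came second at 1.34 ± 0.09 FPKM, without overlap between them. Cacna1g, at 0.854 FPKM, stood above Cacna1c, at 0.781 FPKM, and their ranges overlapped. Cacna1d followed at 0.597 ± 0.259 FPKM, with dKO replicate 1 at 0.351 FPKM and dKO replicate 3 at 0.867 FPKM.

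Both floxed genes kept RNA in the dKO OPC libraries, which also held RNA of other cell types. Which cells the RNA of the floxed genes came from was not tested. Cacna1c, whose protein carries the Cav1.2 L-type current, had TMM-normalized counts (counts scaled for library size and composition) of 364, 411 and 439 in ctl and 257, 336 and 316 in dKO. Every dKO library was below every ctl library. The log2 fold change was -0.44 with an SE of 0.15, a fold of 0.738 (95% interval 0.582 to 0.935). Over all genes this did not pass (adjusted p = 0.349 by Benjamini-Hochberg, edgeR's quasi-likelihood test).

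Cacna1d, which encodes Cav1.3, had normalized counts of 245, 191 and 255 in ctl and 94.6, 153 and 235 in dKO. The groups overlapped, because dKO replicate 3 lay inside the ctl range while the other dKO libraries lay below it. The log2 fold change was -0.55 with an SE of 0.31, and the interval of the fold, 0.420 to 1.12, included no difference (adjusted p = 0.531, edgeR). Leaving out dKO replicate 3 gave a log2 fold change of -0.93, and leaving out dKO replicate 1 gave -0.27.

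The counts are of whole genes, and the floxed exons are a small part of them. Exons 14 and 15 of Cacna1c measured 191 to 434 bases in its 22 GENCODE basic transcripts, or 0.874% to 1.98% of the 21864 bases that the deposited table gives as the gene's length. Exon 2 of Cacna1d measured 310 bases, 2.04% of 15183. Exon numbers were counted within each transcript and may not be the study's numbers. No value per exon was analysed here, so the share of recombined alleles was not measured.

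Among the other 6 pore genes in OPCs, none was called between dKO and ctl, in a test that called 0.00576% of all genes. The T-type gene Cacna1h had normalized counts of 505, 505 and 423 in ctl and 341, 342 and 389 in dKO. As for Cacna1c, all dKO libraries were below all ctl libraries. Its log2 fold change of -0.44 (SE 0.13) was of the same size as that of Cacna1c, with a fold of 0.735 (95% interval 0.596 to 0.907), and did not pass over all genes (adjusted p = 0.310, edgeR). The interval thus lay below 1 for a gene that was not floxed.

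Cacna1i, the T-type pore Cav3.3, had the opposite sign at the bottom of the range. Its normalized counts were 5.98, 10.7 and 2.09 in ctl and 11.9, 27.1 and 13.0 in dKO, so all dKO libraries were above all ctl libraries. The fold of 2.76 had an interval of 1.04 to 7.37 (adjusted p = 0.427, edgeR). The gene reached the minimum mean of 10 counts only through the dKO libraries, and without dKO replicate 2 it could not be tested. Its dKO mean of 0.0995 FPKM was still far below the 0.781 FPKM of Cacna1c in the same libraries.

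Cacna1a, the most abundant pore of the P/Q, N and R branch, had normalized counts of 239, 331 and 324 in ctl and 283, 280 and 318 in dKO. The groups overlapped throughout. Its fold of 0.971 had an interval of 0.754 to 1.25 (adjusted p = 0.941, edgeR), so any rise beyond 1.25-fold lies outside the interval.

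Cacna1g, the T-type pore Cav3.1, had normalized counts of 172, 154 and 200 in ctl and 174, 134 and 153 in dKO. The groups overlapped, with an interval of the fold from 0.641 to 1.16 (adjusted p = 0.687, edgeR).

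Cacna1b and Cacna1e, the N-type and R-type pores, were too variable for a narrow bound. Cacna1b had normalized counts of 19.7, 21.4 and 9.41 in ctl and 31.9, 33.5 and 20.6 in dKO, and dKO replicate 3 lay within the ctl range. Its fold was 1.67 with an interval of 0.849 to 3.29 (adjusted p = 0.539, edgeR). Cacna1e had normalized counts of 107, 129 and 112 in ctl and 71.7, 169 and 98.5 in dKO, with dKO replicate 2 highest and dKO replicate 1 lowest of the 6 libraries. Its fold was 0.968 with an interval of 0.585 to 1.60 (adjusted p = 0.967, edgeR), and without dKO replicate 2 its log2 fold change was -0.47.

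**Figure D2:**
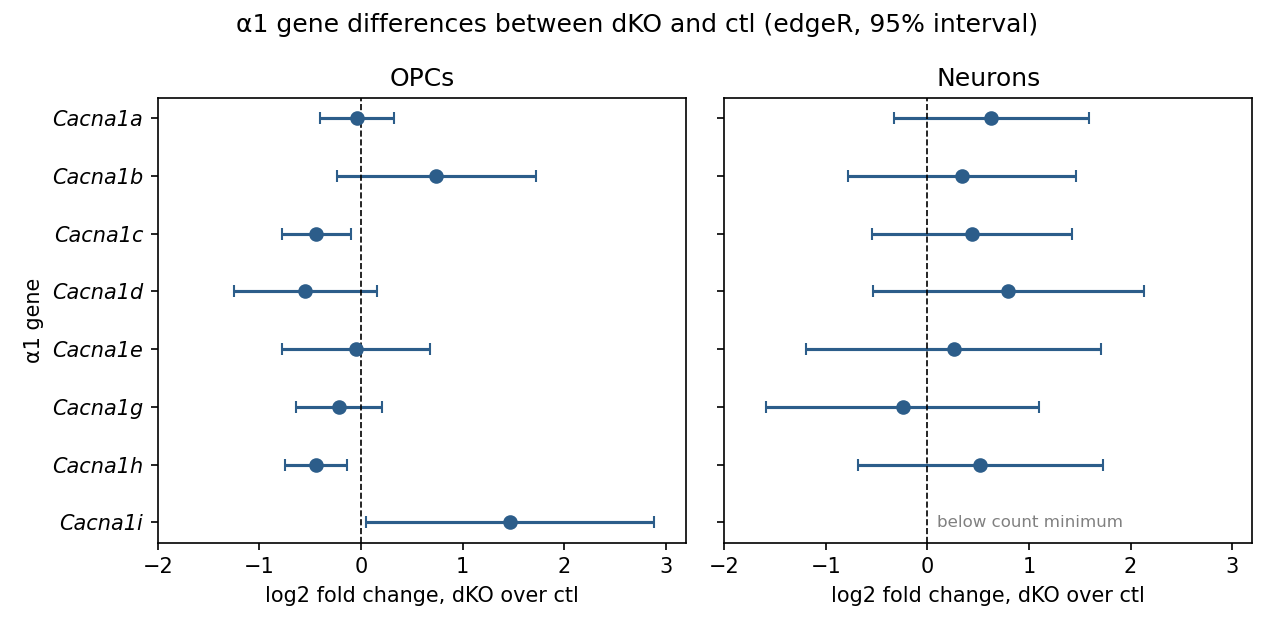
log2 fold change of each α1 gene, dKO over ctl, with its 95% interval from edgeR, in OPCs (left) and neurons (right). In OPCs the intervals of Cacna1c and Cacna1h lie below 0, Cacna1i passed the count minimum only through the dKO libraries, and in neurons every interval of the 7 tested genes includes 0.

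All 8 pore genes were tested in OPCs. Cacna1i passed the count minimum only through the group where it was high, so the counts here are over the other 7. Of these, 6 had a lower and 1 a higher estimate in dKO, and their median log2 fold change was -0.21 against 0.01 over the 17364 genes tested. At an adjusted p under 0.05 edgeR called 0 of the 7, against 0.00576% of all genes, and DESeq2 called 0, against 1.87%. At an unadjusted p under 0.05 edgeR gave 2 of the 7, Cacna1c and Cacna1h, against 11.5% of all genes, and DESeq2 gave 2, against 11.9%. Groups did not overlap for these 2 genes, both lower in dKO, against 7.82% of all genes, and for 0 of the 7 higher in dKO, against 8.59%. The unadjusted count by edgeR was 1 without ctl replicate 3 and 1 without dKO replicate 1, where only Cacna1h was left, and 3 without dKO replicate 3, where Cacna1d joined. Without dKO replicate 2, the library with Xist RNA, the log2 fold changes were -0.53 for Cacna1c, -0.52 for Cacna1d and -0.42 for Cacna1h.

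The summed level of the 6 pore genes that were not deleted did not exceed the ctl range in any dKO library. It was 5.47, 5.86 and 5.40 FPKM in ctl OPCs and 4.64, 4.76 and 4.94 FPKM in dKO OPCs, all dKO values being lower. Without Cacna1h, the sums of the other 5 were 2.49, 2.89 and 2.93 FPKM in ctl and 2.67, 2.77 and 2.70 FPKM in dKO, inside the ctl range. The sum of all 8 was 7.36, 7.65 and 7.49 FPKM in ctl and 5.65, 6.20 and 6.61 FPKM in dKO.

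As a share of that sum, the L-type pair was 25.7%, 23.5% and 28.0% in ctl and 17.9%, 23.3% and 25.4% in dKO. Here 2 of 3 dKO libraries lay below the ctl range, and dKO replicate 3 lay inside it. The T-type genes held 48.0% to 54.2% of the sum in ctl and 46.7% to 53.1% in dKO, with overlap. They were the largest class per length in every OPC library, but from raw counts L-type genes led in ctl replicate 3, with 39.3% against 35.4% for T-type genes. The P/Q, N and R-type genes held 20.1% to 25.6% in ctl and 27.0% to 30% in dKO, with no overlap, while the level of Cacna1a, their main member, overlapped between the groups. Shares of a sum move whenever another member of the sum moves.

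**Figure D3:**
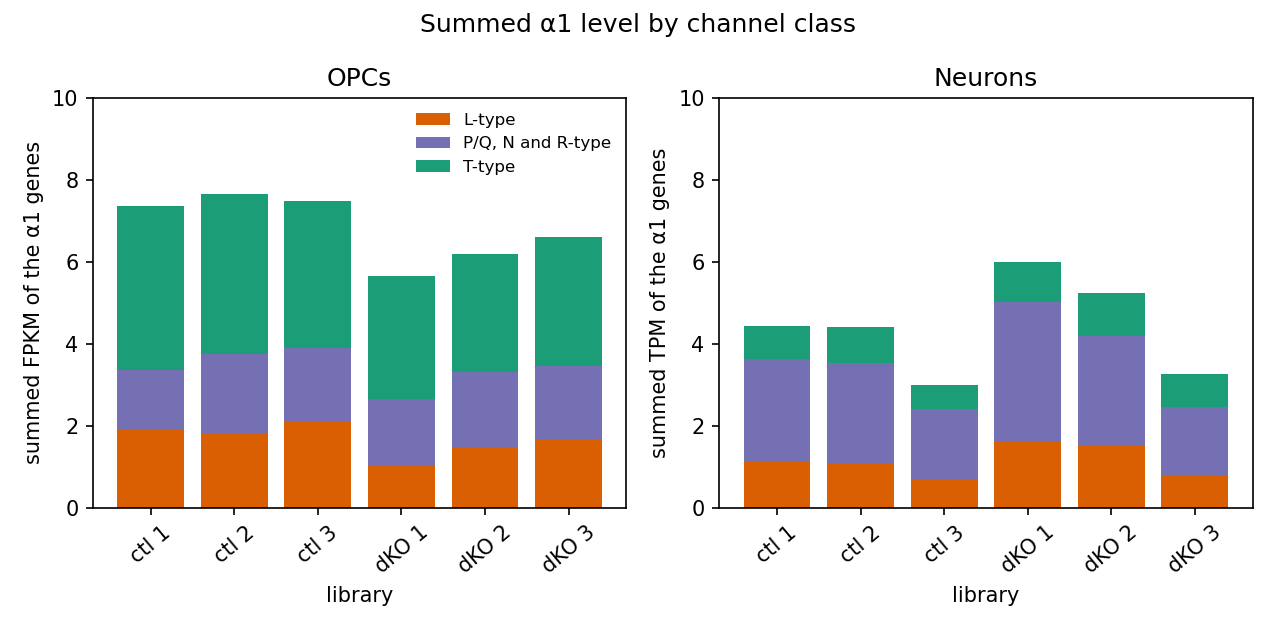
Summed level of the 8 α1 genes in each library, divided into L-type (orange), P/Q, N and R-type (violet) and T-type (green), in OPCs as FPKM (left) and in neurons as TPM (right). The OPC sums are 7.36 to 7.65 in ctl and 5.65 to 6.61 in dKO, with T-type genes the largest class per length, and in neurons the P/Q, N and R-type genes are the largest class.

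Other cell types differed between the OPC groups beside these values. The 10 microglia markers all had higher estimates in dKO and summed to 115 to 140 FPKM in ctl and 158 to 445 FPKM in dKO, and the 10 astrocyte markers, all with higher estimates too, summed to 352 to 529 FPKM in ctl and 561 to 991 FPKM in dKO, neither with overlap. Of the oligodendrocyte markers 7 of 9 had lower estimates, with sums of 8233 to 10068 FPKM in ctl and 5976 to 10847 FPKM in dKO. The sums of OPC markers, which Olig1 leads, were 521 to 812 FPKM in ctl and 408 to 739 FPKM in dKO, while 7 of the 10 had higher estimates, with a median log2 fold change of 0.52. Endothelial markers summed to 329 to 472 FPKM in ctl and 276 to 736 FPKM in dKO, with overlap, and 10 of 10 had higher estimates. Mural and smooth muscle markers, at 269 to 381 FPKM and 232 to 456 FPKM with 8 of 10 higher, and choroid plexus and ependyma markers, at 8404 to 18952 FPKM and 13240 to 13990 FPKM with 7 of 10 higher, overlapped too. Neuron markers summed to 24.2 to 35.7 FPKM in ctl and 26.4 to 40.6 FPKM in dKO, with 9 of 10 higher. The part of these cells in the pore gene values was not tested.

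Pore subunits reach the membrane with auxiliary subunits: β subunits bind the α1 protein inside the cell, α2δ subunits outside it, and γ subunits, Stac proteins and small GTPases modulate it. Of 30 such partner genes 26 passed the count minimum in OPCs. The median difference was 0.17 on the log2 scale, and edgeR called 0 at an adjusted p under 0.05, with 1 higher and 2 lower at an unadjusted p under 0.05, a share near the 11.5% of all genes. The β subunit gene Cacnb4 had normalized counts of 1391, 1565 and 1414 in ctl and 1159, 1131 and 949 in dKO, all dKO libraries being lower (log2 fold change -0.45, adjusted p = 0.287, edgeR). The α2δ gene Cacna2d4 was also lower in each dKO library, by -0.67 on the log2 scale (adjusted p = 0.313, edgeR). The γ subunit gene Cacng8, which also serves AMPA receptors, was higher in each dKO library at low counts, 67.7, 110 and 64.9 against 12.8, 35.7 and 42.9 in ctl (log2 fold change 1.41, adjusted p = 0.321, edgeR). The Stac3 groups did not overlap either, with 18.8 to 30.3 normalized counts in ctl and 4.98 to 18.4 in dKO (adjusted p = 0.476, edgeR). Over the 26 tested partners the groups did not overlap for 2 genes higher and 3 lower in dKO, beside 8.59% and 7.82% of all genes. DESeq2 called 0 of the 25 to which it gave an adjusted p, beside 1.87% of all genes. It gave 3 of the 26 at an unadjusted p under 0.05, near the 11.9% of all genes.

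Calcium also enters by ligand-gated, store-operated and stretch-gated channels, and 23 of 26 such genes passed the count minimum in OPCs. Over these the log2 fold change had a median of 0.11, with 0 called at an adjusted p under 0.05 and 2 higher and 1 lower at an unadjusted p under 0.05 by edgeR, near the 11.5% of all genes. Grin2c, an NMDA receptor subunit, had normalized counts of 132, 270 and 239 in ctl and 402, 831 and 756 in dKO, without overlap (log2 fold change 1.62, 95% interval 0.88 to 2.37, adjusted p = 0.246, edgeR). The call for Grin2c depended on the method. DESeq2 gave an adjusted p of 0.000871, edgeR with no filter on low counts 0.0138 and edgeR with a block for replicate number 0.00783. Over all 13 settings its adjusted p ran from 0.000871 to 0.779 and its log2 fold change from 1.37 to 1.89. Grin2c was the 1 calcium entry gene that DESeq2 called, of 20 with an adjusted p, beside 1.87% of all genes. At an unadjusted p under 0.05 DESeq2 gave 4 of the 23, beside 11.9% of all genes. Trpc1, a cation channel, had 652, 646 and 591 in ctl and 483, 504 and 457 in dKO, also without overlap (log2 fold change -0.41, adjusted p = 0.296, edgeR). P2rx1, an ATP-gated channel, was at 97.6 and 125 in dKO replicates 1 and 3, the libraries with the most microglia RNA, and at 33.5 in dKO replicate 2, within the ctl range of 32.2 to 45.0. Over the 23 tested genes the groups did not overlap for 2 higher and 2 lower in dKO, beside 8.59% and 7.82% of all genes. Whether astrocyte or microglia RNA contributed to the Grin2c and P2rx1 values was not tested.

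Over the 6 OPC libraries, the genes whose log2 CPM followed that of Cacna1c most closely among 11895 genes averaging 100 normalized counts or more were Hsf2, Lrif1 and Casp9, with a Pearson coefficient of 0.989, 0.988 and 0.981. For Cacna1d they were Stk19, Lrrc43 and Zbtb20, at 1.00, 0.993 and 0.990. With 6 points that share the same 2 groups, 65 genes passed 0.9 for Cacna1c and 102 for Cacna1d, so these coefficients are descriptions.

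In neuron libraries the levels of all pore genes were low and no test at the level of genes found a difference. Neurons are not the target of the NG2-driven Cre. These libraries also held endothelial and choroid plexus RNA, and mural and smooth muscle markers at 350 to 910 TPM in ctl. Pericytes, which make NG2, are mural cells. The part of such cells in the low pore gene levels was not tested. Values are TPM from another counting method than in OPCs, so levels were ordered within neurons and not tested against OPCs. In ctl neurons Cacna1b was at 1.01, 1.46 and 0.34 TPM, Cacna1e at 1.02, 0.47 and 0.75 TPM and Cacna1c at 0.77, 0.94 and 0.47 TPM. These ranges overlapped, and so did those of each following neighbour, Cacna1a at 0.537 ± 0.080 TPM, Cacna1h at 0.443 ± 0.262 TPM, Cacna1g at 0.290 ± 0.118 TPM and Cacna1d at 0.240 ± 0.125 TPM. Only Cacna1i, at 0.07, 0 and 0 TPM, stood clear below its neighbour. The order differed from that of OPCs in its leading class: P/Q, N and R-type genes held 55.9% to 57.0% of the summed level in ctl neurons, and T-type genes 18.1% to 20.0%.

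**Figure D4:**
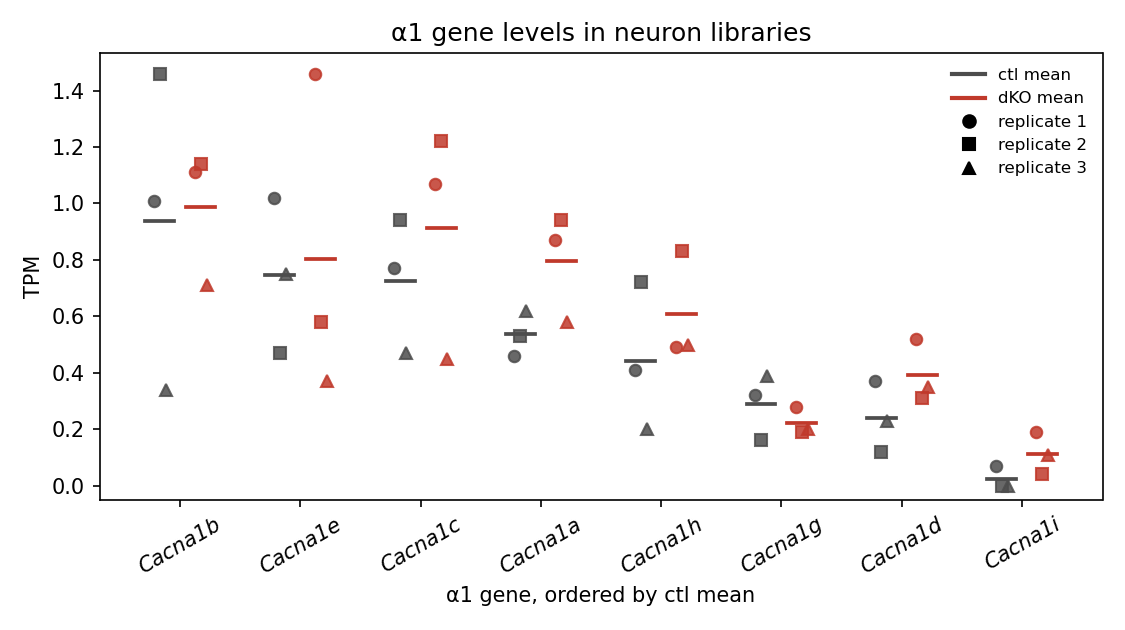
TPM of the 8 α1 genes in each neuron library, with ctl in grey, dKO in red, symbols for replicates and bars for group means. No gene exceeds 1.46 TPM, and the dKO and ctl points of every tested gene overlap.

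The L-type genes in neurons had higher mean counts in dKO, with overlapping groups. Cacna1c had normalized counts of 93.5, 111 and 62.1 in ctl and 163, 139 and 57.8 in dKO, dKO replicate 3 being the lowest of all (fold 1.35, 95% interval 0.684 to 2.68, adjusted p = 0.779, edgeR). Cacna1d had 30.5, 10.7 and 20.3 in ctl and 54.3, 25.5 and 26.8 in dKO, where replicates 2 and 3 lay inside the ctl range (fold 1.74, 95% interval 0.690 to 4.37, adjusted p = 0.710, edgeR). These intervals are wide enough to hold a change by a factor of 2 in Cacna1c and of 4 in Cacna1d.

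Of the release-linked pores, Cacna1a had 33.6, 39.0 and 49.3 normalized counts in ctl neurons and 82.4, 64.2 and 41.3 in dKO neurons, with dKO replicate 3 inside the ctl range (fold 1.55, 95% interval 0.797 to 3.01, adjusted p = 0.691, edgeR). Cacna1b ranged from 25.7 to 95.7 in ctl and from 59.9 to 96.0 in dKO, with a log2 fold change of 0.34. Cacna1e ranged from 67.3 to 151 in ctl and from 48.5 to 293 in dKO, where dKO replicate 1 was the highest of the 6 libraries and the other dKO libraries were below the ctl mean of 119. Its log2 fold change of 0.26 became -0.87 without dKO replicate 1.

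Of the T-type genes in neurons, Cacna1h had normalized counts of 29.5, 53.7 and 16.1 in ctl and 46.6, 58.6 and 37.2 in dKO, so the lower OPC values of this gene had no counterpart here (log2 fold change 0.52, 95% interval -0.69 to 1.73, adjusted p = 0.786, edgeR). Whether the difference between the cell types is larger than their errors was not tested. Cacna1g ranged from 11.7 to 27.8 in ctl and from 12.3 to 25.2 in dKO. Cacna1i had 6, 0 and 0 estimated counts in ctl and 22, 4 and 9 in dKO, below the count minimum. Its ctl zeros allow up to 3 counts per library, which reaches near the 4 counts of dKO replicate 2. Cacna1s had 3, 1 and 2 counts in ctl and 0 in every dKO library, and Cacna1f was not found by symbol among the neuron genes.

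Of the 7 pore genes tested in neurons 6 had a higher and 1 a lower estimate in dKO, and their median log2 fold change was 0.44 against 0.01 over the 14352 genes tested. At an adjusted p under 0.05, edgeR called 0 of the 7 and 0% of all genes, and DESeq2 called 0 of the 7 and 0.614% of all genes. At an unadjusted p under 0.05 both tools gave 0 of the 7, where edgeR gave 9.00% and DESeq2 10.7% of all genes. Groups did not overlap for 0 of the 7, against 15.3% of all genes in either direction. Without replicate 1 of both groups, the libraries with Y-linked RNA, no pore gene was called and the log2 fold changes ran from -0.66 for Cacna1e to 0.75 for Cacna1d.

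The makeup of the neuron libraries differed between the groups as well. The neuron markers summed to 467 to 623 TPM in ctl and 646 to 857 TPM in dKO, with 8 of 10 higher, and the endothelial markers to 13235 to 15802 TPM in ctl and 6228 to 12445 TPM in dKO, with 10 of 10 lower, neither with overlap. Choroid plexus and ependyma markers were at 12491 to 26918 TPM in ctl and 25434 to 67692 TPM in dKO, with 7 of 9 tested ones higher. The sums of the other lists overlapped, with lower estimates in dKO for 8 of 10 OPC, 9 of 9 oligodendrocyte, 10 of 10 microglia, 8 of 10 astrocyte and 5 of 10 mural and smooth muscle markers. They were, for OPC markers, 32.5 to 101 TPM in ctl and 44.0 to 67.3 TPM in dKO, for oligodendrocyte markers 405 to 1972 TPM and 526 to 1169 TPM, for microglia markers 431 to 2012 TPM and 337 to 1100 TPM, for astrocyte markers 264 to 612 TPM and 140 to 370 TPM, and for mural and smooth muscle markers 350 to 910 TPM and 468 to 916 TPM. The part of these cells in the neuronal pore gene values was not tested.

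Of the 30 partner genes 23 were tested in neurons, with a median log2 fold change of 0.39, 19 higher and 4 lower estimates, 0 called at an adjusted p under 0.05 and 1 higher at an unadjusted p under 0.05 by edgeR, against 9.00% of all genes. Cacng4, a γ subunit that also serves AMPA receptors, had 61.0, 134 and 136 normalized counts in ctl and 204, 244 and 147 in dKO, all dKO libraries being higher (log2 fold change 0.85, adjusted p = 0.548, edgeR). Cacnb4 had 361, 367 and 344 in ctl and 752, 391 and 436 in dKO, again all higher (log2 fold change 0.56, adjusted p = 0.557, edgeR). The β subunit gene Cacnb1 and the small GTPase gene Gem, which dampens calcium channels, had overlapping groups, with log2 fold changes of 0.79 and -0.69. Over the 23 partners the groups did not overlap for 5 higher and 0 lower in dKO, beside 15.3% of all neuron genes in either direction. DESeq2 called 0 of the 23, beside 0.614% of all genes, and gave 1 at an unadjusted p under 0.05, beside 10.7%.

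Of the 26 other calcium entry genes 24 were tested in neurons, with a median log2 fold change of 0.25, 0 called at an adjusted p under 0.05 and 1 higher and 1 lower at an unadjusted p under 0.05 by edgeR, near the 9.00% of all genes. Grin3a, an NMDA receptor subunit, had 70.2, 72.2 and 78.2 normalized counts in ctl and 133, 99.2 and 180 in dKO (log2 fold change 0.90, adjusted p = 0.521, edgeR). The ATP-gated channel gene P2rx4 had 448, 363 and 365 in ctl and 260, 247 and 319 in dKO (log2 fold change -0.51, adjusted p = 0.521, edgeR), and P2rx1 differed by -1.09 on the log2 scale (adjusted p = 0.587, edgeR). Groups did not overlap for any of these 3 genes. Over the 24 tested genes this held for 3 higher and 3 lower in dKO, beside 15.3% of all genes in either direction. DESeq2 called 0 of the 24, beside 0.614% of all genes, and gave 2 at an unadjusted p under 0.05, beside 10.7%.

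The neuron table divides each gene's reads over transcripts, and for most pore genes this division varied between libraries. Of the 129 transcripts 108 are predicted models, and 3 had counts in all 6 libraries. For each gene the transcript with the largest share in ctl was taken, a choice that by itself favours a lower share in dKO, so these shares are descriptions. The leading ctl transcript of Cacna1c, XM_011241192, held 4.05% to 17.1% of the gene's counts per ctl library and 0.643% to 5.19% per dKO library. NM_001252061 of Cacna1a held 0% to 27.7% and 0% to 8.94%, and NM_028981 of Cacna1d 0% to 29.7% in ctl and 0% in dKO. XM_017312848 of Cacna1e held 1.17% to 76.0% and 0% to 12.7%, and NM_001177890 of Cacna1g 0% to 58.0% and 0% to 35.5%. The ctl and dKO shares of these 5 overlapped. XM_011239014 of Cacna1b, which was present in all 6 libraries, held 71.8% to 88.0% in ctl and 64.8%, 63.7% and 4.98% in dKO replicates 1, 2 and 3, so the groups did not overlap and dKO replicate 3 stood far below the other dKO libraries. The test across transcripts passed 0 of 40070 at an adjusted p under 0.05, or 0%, and 4.60% at an unadjusted p under 0.05. Of the 8 pore gene transcripts tested, edgeR gave 0 and DESeq2 gave 2 at an adjusted p under 0.05, where DESeq2 passed 1.85% of all transcripts, and edgeR gave 2 at an unadjusted p under 0.05.

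Those transcripts belong to Cacna1h, which was divided without overlap. Each reached the count minimum only through the group where it had counts, so these calls are not read as results. NM_001163691 had 29, 55 and 15 estimated counts in ctl and 0 in every dKO library. NM_021415 had 0 in every ctl library and 48, 62 and 32.3 in dKO, and the predicted XM_006524734 took the remaining 3.75 counts of dKO replicate 3. The gene's sum overlapped between the groups, so the whole contrast lies in which identifier received the reads. In the GENCODE M21 tables both curated identifiers map to 1 Ensembl transcript, ENSMUST00000078496.11. The few counts of Cacna1i were divided in the same way, with NM_001044308 in ctl and XM_030248558 in dKO. In the whole neuron table, 14 of 10163 genes with several transcripts and at least 5 counts in each library, or 0.138%, had over 50% of their counts on 1 transcript in all ctl libraries and on another in all dKO libraries. In 2 of the 14, Cacna1h and Aoc2, each of the pair was at 0 in the opposite group. This count was made after the Cacna1h values had been seen.

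**Figure D5:**
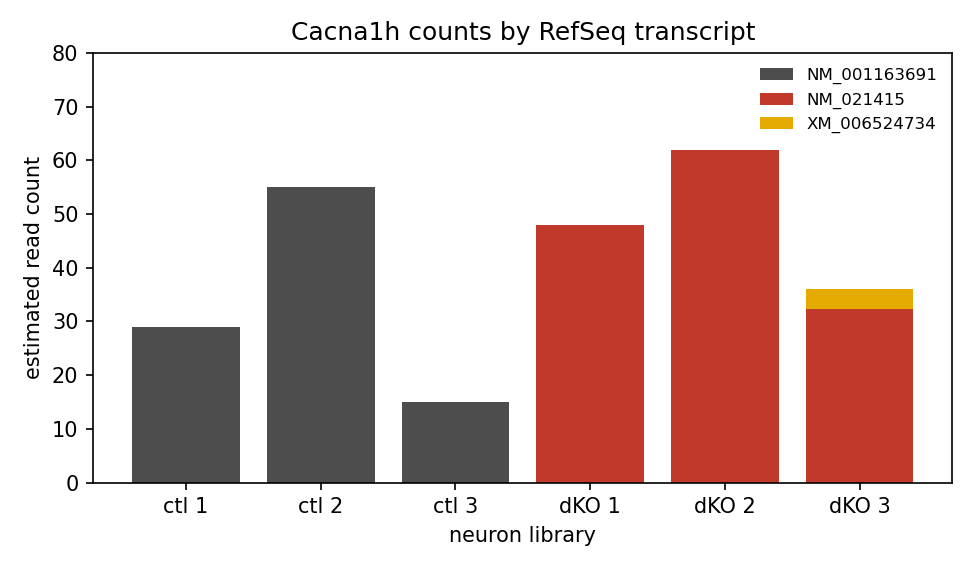
Estimated read counts of Cacna1h in each neuron library, stacked by RefSeq transcript (NM_001163691 grey, NM_021415 red, XM_006524734 yellow). All ctl counts, 15 to 55 per library, are on NM_001163691, and all dKO counts are on the other identifiers.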

How the data were processed

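RNA of OPCs and neurons from cortex was analysed in 12 libraries. For OPCs the authors deposited raw counts per Ensembl gene and FPKM. Their methods name HISAT2 and featureCounts on GRCm38 for both cell types, whereas the submitters' processing notes name mm39 and the gene coordinates in the table differ from GRCm38, so none of them is printed. For neurons the authors deposited estimated counts (expected counts) and TPM per RefSeq transcript, whose fractional values are not the whole counts per gene that those methods describe, so the tool behind them is unclear. These were summed per Entrez gene and rounded. Neuron columns named cKO were taken as dKO by their numbers. Columns of the authors' own fold changes and p-values were not used.

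Each cell type was fitted on its own with edgeR 4.0.16 (R 4.3.3; TMM, quasi-likelihood test, genotype only) on features averaging 10 normalized counts or more, with Benjamini-Hochberg adjustment over all of them at 0.05. Intervals are 95% intervals from log2 fold change and SE. The biological coefficient of variation was 20.5% in OPCs, 27.7% in neurons and 102% for transcripts. On simulated data with changes of 2 on the log2 scale, larger than the gene-level estimate of any pore gene, 194 of 195 changed OPC genes, 194 of 200 neuron genes and 0 of 181 transcripts were called, with 8, 1 and 0 unchanged ones. Alternatives were DESeq2 1.42.0, other size factors and filters, a replicate block, curated transcripts and leaving out libraries. Named partner genes are the 4, and named calcium entry genes the 3, with the smallest p per cell type; per gene the leading ctl transcript is named, and per floxed gene the 3 most similar profiles, by log2 CPM with 1 normalized count added. The members and lists were chosen with earlier results of these data known, and 1 oligodendrocyte marker is not reported here. Libraries of a group differed by more than sampling noise (chi-square per gene of at least 14.3 in OPCs).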

Additional observations from a re-analysis of the deposited data

Results flagged for a closer look

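Among the pore, partner and calcium entry genes, Cacnb4 and Trpc1 went opposite ways in the cell types. For Cacnb4 every dKO library was below every ctl library in OPCs (log2 fold change -0.45) and above it in neurons (0.56). For Trpc1 the values were -0.41 in OPCs and 0.56 in neurons, again without overlap. The difference between the cell types was not tested, since the tables were counted in different ways, and no adjusted p of these genes was under 0.05. They are 2 of the 52 pore, partner and calcium entry genes tested in both cell types, or 3.85%, and groups without overlap in opposite directions were found for 165 of all 13398 genes tested in both, or 1.23%. With 3 libraries per group, single libraries were not tested as outliers.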

How the results depend on the processing

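In OPCs 90 of 95 alternative estimates for the pore genes kept their direction and side of the threshold, in neurons 88 of 95, and the others reversed without an adjusted p under 0.05. The count of all OPC genes called, 1, became 299 with DESeq2, 87 with no filter on low counts, 27 with the replicate block and 1 to 199 with single libraries left out, highest without dKO replicate 2. For neurons, 0 became 88 genes with DESeq2, and for transcripts 716 with DESeq2 and 0 to 1 with single libraries left out. DESeq2 called 2 pore gene transcripts, both of Cacna1h, which passed the count minimum only through the group where they had counts. The cause was not tested. With single libraries left out, the log2 fold change in OPCs ranged from -0.17 to 0.033 for Cacna1a and from -0.47 to 0.20 for Cacna1e, and in neurons from -0.024 to 0.82 for Cacna1b, from -0.87 to 0.67 for Cacna1e and from -0.62 to 0.031 for Cacna1g. In neurons Cacna1a was at -0.61 with curated transcripts alone, and Cacna1e at -0.045 with the replicate block and at -0.66 without replicate 1 of both groups, an alternative chosen after seeing the data.

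From raw counts, in place of levels per length, the share of Cacna1c and Cacna1d was 36.8% in ctl and 32.2% in dKO OPCs and 28.2% and 30.7% in ctl and dKO neurons; longer transcripts weigh more there. CPM per kilobase left each OPC level within 1 SD, and this alternative was not run in neurons, whose table gives no length. The replicate numbers are not stated to pair samples: deviations of same-numbered libraries correlated at -0.11, 0.15 and 0.11 in OPCs and at 0.17, -0.08 and -0.08 in neurons. At an unadjusted p under 0.05 the replicate block gave Cacna1c, Cacna1d, Cacna1h and Cacna1i in OPCs, 4 pore genes in place of 3. Cacna1d was the gene added, and Cacna1i passed the count minimum only through the dKO libraries. Of all 17364 OPC genes the block gave 2025, in place of 2003. Of pore gene transcripts it gave 0 in place of 2. At an adjusted p under 0.05 it called no pore gene or transcript, and Grin2c passed there at 0.00783 in OPCs (edgeR). Counting error weighs most on Cacna1b and Cacna1i in OPCs, at 2.09 to 33.5 normalized counts per library, and on all pore genes in neurons, at 0 to 293.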

Other observations

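The surroundings of the pore genes were read from the OPC table, in a window of 2 Mb on each side that was chosen after values had been seen. Near Cacna1d 10 of 48 tested genes were lower in every dKO library than in every ctl library, with a median log2 fold change of -0.13, and near Cacna1c 7 of 45 were, with a median of -0.03, against 7.82% of all genes. Near the genes that were not deleted this held for 11 of 76 at Cacna1b, 13 of 141 at Cacna1h, 8 of 80 at Cacna1a, 10 of 103 at Cacna1i, 3 of 44 at Cacna1e and 2 of 45 at Cacna1g, and the share near Cacna1b was close to that near Cacna1c. Higher in every dKO library were 3 of 48 genes near Cacna1d, 1 of 45 near Cacna1c, 4 of 76 near Cacna1b, 5 of 141 near Cacna1h, 5 of 80 near Cacna1a, 7 of 103 near Cacna1i, 6 of 44 near Cacna1e and 6 of 45 near Cacna1g, against 8.59% of all genes. The gene called at an adjusted p under 0.05 in OPCs, 1520401A03Rik, lies 1.65 Mb from Cacna1h on chromosome 17. It had 625, 487 and 479 counts in ctl and 7, 3 and 8 in dKO.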
